A study of Mus musculus with 12 samples.

Results

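The Il2ra locus was described here from the DNase I hypersensitive sites (DHSs) around the mouse gene Il2ra in early T cell precursors. DNase-seq cuts chromatin with DNase I and sequences the cut fragments, so that a called peak marks DNA that was accessible, or "open", in that library. Every peak on chromosome 2 from 50 kb before the Il2ra start site to 50 kb after the gene's end was taken, a window of 150.4 kb at chr2:11592807-11743193 (mm10, the assembly also called GRCm38). In GENCODE M21 the gene, ENSMUSG00000026770.5, lies on the plus strand at chr2:11642807-11693193. The 12 peak lists held 135 peaks in this window, and merging those that overlapped by at least 1 bp gave 32 sites, out of 170207 consensus DHSs on the autosomes and X. Of the 32 sites, 20 were open in 3 or more libraries and are each described, 3 were open in 2 libraries and 9 in 1 library.

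All cells derived from C57BL/6J marrow LSK cells, which are lineage-negative progenitors that carry SCA1 and KIT. LSK libraries (3) came from freshly isolated cells. DN1 (KIT++CD44+CD25-, 2 libraries), DN2a (KIT++CD44+CD25+, 2) and DN2b (KIT+CD44loCD25+, 2) cells were sorted from LSK cells grown on immobilized Delta1ext-IgG, a Notch ligand, with SCF, FLT-3 ligand, IL-6 and IL-11. IgG libraries (3) came from LSK cells grown with the same factors on human IgG1 without ligand. The study's methods describe no sorting by stage for the IgG cells. The DN2 cells had also received IL-7, whereas DN1 cells were taken from cultures without it, so stage and IL-7 cannot be told apart. CD25 is the protein that Il2ra encodes, so the DN1 and DN2 groups were themselves chosen by the product of the gene, and a difference between them at this locus cannot be told apart from that gate. Per the study's methods, each LSK isolate gave cells of all 3 DN stages, and the labels do not say which libraries share one. The tests treat all libraries as independent, so sharing of isolates is not accounted for in their p-values.

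Il2ra encodes the alpha chain of the interleukin-2 receptor. It joins the beta chain (Il2rb) and the common gamma chain (Il2rg) to make the high-affinity receptor, which signals through JAK1, JAK3 and STAT5. In the thymus CD25 appears when precursors pass from the DN1 to the DN2 stage under Notch signalling, which makes it the classical marker of that step. Its neighbour Il15ra encodes the alpha chain of the related interleukin-15 receptor.

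The sites on which the description turns are shown first, as GRCm38 plus-strand sequence read 5′ to 3′. The promoter is the 250 bases before the RefSeq start of Il2ra, chr2:11642542-11642791. Capitals mark its last 75 bases, which lie inside the site that was open only in DN2 libraries. That site runs on into the first exon, whose bases are left out. The RefSeq start lies 15 bp upstream of the GENCODE start from which distances are given.
Il2ra promoter: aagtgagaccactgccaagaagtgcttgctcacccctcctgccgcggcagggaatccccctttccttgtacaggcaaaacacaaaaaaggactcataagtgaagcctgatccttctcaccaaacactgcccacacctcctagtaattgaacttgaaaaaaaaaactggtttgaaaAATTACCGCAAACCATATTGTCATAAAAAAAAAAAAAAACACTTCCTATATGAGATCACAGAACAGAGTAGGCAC

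The next 3 are the sites open in all 6 Delta1-cultured libraries (DN1, DN2a and DN2b) and in no other library. They lie at chr2:11623217-11623386, chr2:11636157-11636346 and chr2:11657717-11657906. Capitals mark matches to the motif letters given further on.
-19.5 kb site: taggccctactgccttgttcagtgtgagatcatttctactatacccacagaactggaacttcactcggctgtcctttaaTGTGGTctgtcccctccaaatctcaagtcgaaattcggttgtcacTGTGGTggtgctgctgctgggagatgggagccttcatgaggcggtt
-6.6 kb site: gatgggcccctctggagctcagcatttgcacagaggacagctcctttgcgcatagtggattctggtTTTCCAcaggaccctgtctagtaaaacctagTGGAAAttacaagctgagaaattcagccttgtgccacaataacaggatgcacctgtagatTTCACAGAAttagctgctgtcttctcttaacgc
+15.0 kb site: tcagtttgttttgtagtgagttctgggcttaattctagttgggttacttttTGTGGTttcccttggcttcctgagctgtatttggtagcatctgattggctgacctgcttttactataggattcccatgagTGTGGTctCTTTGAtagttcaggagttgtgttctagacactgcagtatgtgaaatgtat

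The last pair was chosen after the values were seen. The -5.5 kb site, chr2:11637177-11637386, was open in every library at unequal rank. The +10.7 kb site, chr2:11653437-11653626, was open in every library except IgG. Capitals again mark motif matches.
-5.5 kb site: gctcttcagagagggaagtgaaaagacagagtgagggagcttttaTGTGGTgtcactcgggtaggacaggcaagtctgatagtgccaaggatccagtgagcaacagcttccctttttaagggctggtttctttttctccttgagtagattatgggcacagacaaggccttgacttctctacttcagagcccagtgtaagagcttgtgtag
+10.7 kb site: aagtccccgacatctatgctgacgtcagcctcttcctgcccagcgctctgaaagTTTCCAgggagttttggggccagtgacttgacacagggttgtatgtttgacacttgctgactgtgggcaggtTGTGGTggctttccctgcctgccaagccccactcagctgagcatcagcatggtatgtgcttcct

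Each list gives a peak a score from 1 to 150 whose scale is not stated, so only its rank was used. The score percentile of a peak is the percent of the peaks of its own library that score lower, ties counted by their midpoint. Lists ran from 32977 to 111657 peaks, and read totals were not used here, so the depth behind each list is unknown. A site without a peak was not called at that depth, which does not show that it was closed. Percentiles depend on list length too, so they were also computed with every list cut to its 32952 highest-scoring peaks on the autosomes and X, the number the shortest list holds there. Up to 1390 peaks of a library tied at the cut and were kept in genome order.

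More peaks were called around Il2ra in Delta1-cultured cells than in the other cells. The window held 9, 8 and 8 peaks in the LSK libraries. It held 16 and 13 in DN1, 16 and 10 in DN2a, 14 and 23 in DN2b. The IgG libraries held 6, 5 and 7. Every Delta1-cultured library lay above every other library, with 15.3 ± 4.37 peaks (SD, n = 6) against 7.17 ± 1.47 (SD, n = 6). Of the 21755 protein-coding genes, 6.85% had windows of the same design with this separation. The difference of 8.17 peaks had p = 0.00216 by a two-sided exact permutation test over 924 divisions of the libraries, and p = 0.00649 after Benjamini-Hochberg adjustment over the 3 tests made.

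**Figure D1:**
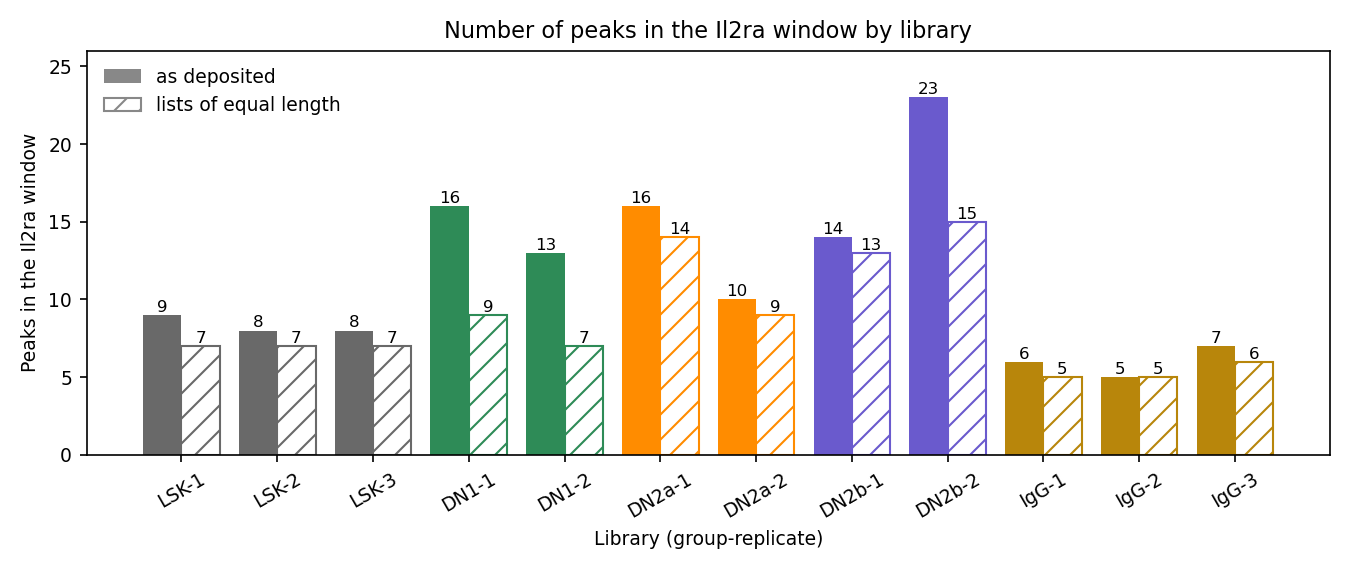
Number of peaks in the Il2ra window (vertical axis) for each of the 12 libraries (horizontal axis, group and replicate), as deposited (filled bars) and with all lists cut to the same length (hatched bars). As deposited, the 6 Delta1-cultured libraries held 10 to 23 peaks and the other 6 held 5 to 9.

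In order of mean, IgG held 6.0 ± 1.0 peaks (SD, n = 3), LSK 8.33 ± 0.577 (n = 3), DN2a 13.0 ± 4.24 (n = 2), DN1 14.5 ± 2.12 (n = 2) and DN2b 18.5 ± 6.36 (n = 2). As deposited, IgG and LSK did not overlap, nor did LSK and DN2a, whereas DN2a, DN1 and DN2b overlapped one another. The shares of gene windows with these separations of single groups were not counted. Of the variance in peak number, 0.786 lay between the 5 groups (exact permutation test over 138600 divisions, one-sided, p = 0.014, adjusted p = 0.021). By the same exact test the adjusted p was 0.0757 for peaks per 10000 of the library, 0.0652 without Il2ra promoter peaks and 0.0583 with flanks of 100 kb. The 4 DN2 libraries held 15.8 ± 5.44 peaks and the other 8 held 9.0 ± 3.7, a difference of 6.75 (SD, two-sided exact permutation test, p = 0.0283, adjusted p = 0.0283). Without DN2b replicate 2, the library with the longest list, that difference was 4.33 and the exact test gave an adjusted p of 0.127. Without IgG replicate 3 it was 6.46, with an adjusted p of 0.0515 by the same exact test. By that test the adjusted p was also 0.0727 without Il2ra promoter peaks (a difference of 5.5) and 0.0583 with flanks of 100 kb (9.12). The DN2 libraries did not all lie above the rest, as 0.515% of gene windows did.

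List length moved with these counts. Delta1-cultured libraries had 57729 to 111582 peaks on the autosomes and X, the others 32952 to 62377. Per 10000 peaks of the library, the window held 1.99 ± 0.284 peaks in Delta1-cultured libraries and 1.57 ± 0.199 in the others (SD, n = 6 each). These ranges overlapped, at 1.66 to 2.34 and 1.28 to 1.87. By group the order of means changed, with LSK at 1.47 (1.28 to 1.67) below IgG at 1.66 (1.52 to 1.87). DN1 stood at 1.77 (1.66 to 1.87), DN2a at 2.04 (1.73 to 2.34) and DN2b at 2.17 (2.06 to 2.28). On this measure IgG overlapped LSK, DN1 and DN2a. With lists of equal length the window held 7 peaks in each LSK library and 5, 5 and 6 in the IgG libraries. The DN1 libraries then held 9 and 7, DN2a 14 and 9 and DN2b 13 and 15. The Delta1-cultured libraries then no longer all lay above the rest, since DN1 replicate 2 tied with the LSK libraries. With all peaks tied at the cut left out, a choice made after seeing the data, DN1 held 8 and 6 peaks and DN2 9 to 15, so that DN2 lay above all other libraries. In equal lists as cut, 2.12% of gene windows had that separation. With the lists as cut, the difference was 5.0 peaks for Delta1-cultured cells and 6.12 for DN2 cells, each with an adjusted p of 0.0112 by the exact permutation test. These tests measure the spread between libraries, and the gene was picked for description with its promoter pattern known, so they are no independent evidence for that pattern.

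**Figure D2:**
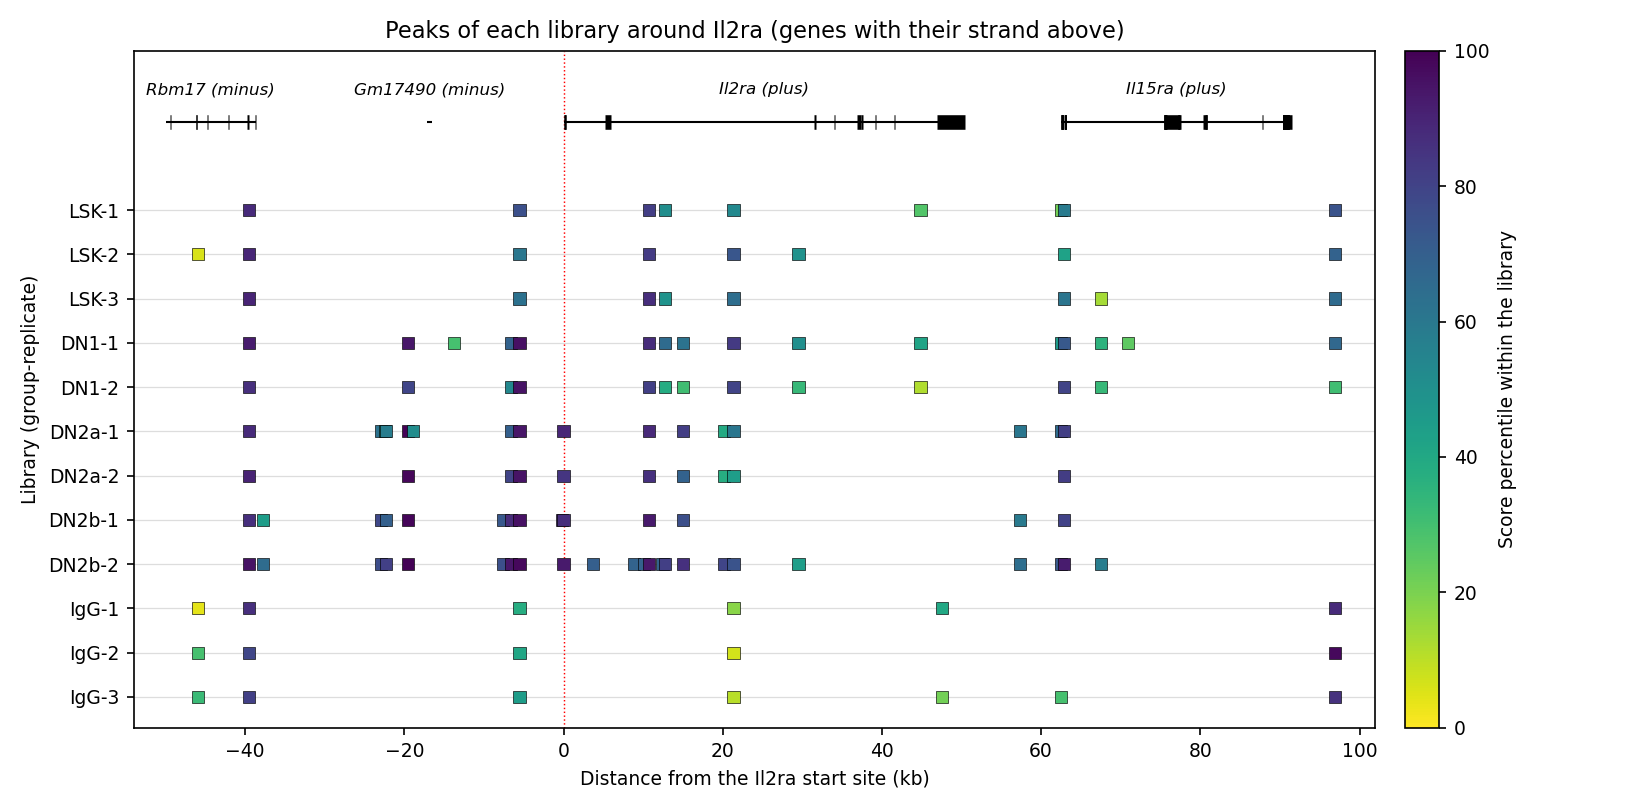
Peaks in each of the 12 libraries (rows) by distance from the Il2ra start site in kb (horizontal axis, dotted line at the start), coloured by score percentile within the library, with annotated genes and their exons above. Only DN2 rows carry a mark at the start site, and the 6 DN rows carry marks at -19.5, -6.6 and +15.0 kb that LSK and IgG rows lack.

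The Il2ra promoter site, chr2:11642717-11642886, was called in the DN2 libraries alone. Its percentile was 89.4 and 84.7 in DN2a and 86.9 and 93.0 in DN2b. Both stages overlapped, and no LSK, DN1 or IgG library had a peak within 1 kb of the start. Of all protein-coding promoters, 0.0735% (16 of 21755) were open in this set of libraries, and of all consensus DHSs 0.758%. With lists of equal length the site kept all 4 libraries, at percentiles of 73.2 to 78.1. A second peak just upstream, centred 0.2 kb before the start, was called only in DN2b replicate 1, at a percentile of 89.8, above that library's promoter site itself.

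Upstream of the gene, the -19.5 kb site held the highest-ranking peak of the window in each DN2 library. It is an intergenic site whose nearest protein-coding start, 2.96 kb away, is that of Gm17490. Its percentile was 93.8 and 79.3 in DN1, 99.4 and 98.1 in DN2a and 98.6 and 99.3 in DN2b. It was thus already called in both CD25-negative DN1 libraries, which had no promoter peak, and all DN2 values lay above both DN1 values. In equal lists DN1 stood at 81.8 and 56.4 and DN2 at 96.7 to 98.7.

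The -6.6 kb site was called in the same 6 libraries. Its percentile was 68.8 and 53.4 in DN1, 69.6 and 80.0 in DN2a and 87.5 and 94.0 in DN2b. The groups did not overlap and stood in the order DN1, DN2a, DN2b, although the highest DN1 and the lowest DN2a value were close. The share of DHSs open in the same libraries that showed this order was not counted. In equal lists this order was kept, with DN1 near the bottom of its lists at 8.6 and 1.86, DN2a at 36.8 and 64.9 and DN2b at 76.6 and 79.6. The DN1 replicate 2 peak, at a score of 32, was among the peaks tied at the cut. With those ties left out, that library lost the site.

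The +15.0 kb site, in intron 1, was the third site with this pattern. Its percentile was 62.0 and 30.5 in DN1, 82.0 and 68.9 in DN2a, and 76.0 and 86.3 in DN2b. All DN2 values again lay above both DN1 values, and DN2a and DN2b overlapped. In equal lists no DN1 library kept the peak, while the DN2 libraries kept it at 45.5 to 62.6, so that its set of libraries became that of the promoter.

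Thus 3 of 32 sites were open in all Delta1-cultured libraries and no other, against 1.9% of all consensus DHSs. At all 3 every DN2 percentile exceeded every DN1 percentile, as at 30.8% of the 3226 DHSs with that pattern. With 2 DN1 against 4 DN2 libraries an exact test over 15 divisions cannot give a p below 0.0667, and none was made. Counting the promoter, 4 sites were open in every DN2 library while LSK and IgG had no peak, a pattern of 3.46% of all DHSs.

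The -5.5 kb site, the next one towards the gene, was open in every library but not at the same rank. Its percentile was 75.5, 60.5 and 62.8 in LSK and 37.5, 40.9 and 44.7 in IgG. The DN1 libraries stood at 95.8 and 95.0, DN2a at 94.2 and 95.2 and DN2b at 95.7 and 97.7. The Delta1-cultured, LSK and IgG libraries formed 3 ranges that did not overlap. The means were 95.4 ± 0.565 in DN1, 94.7 ± 0.712 in DN2a and 96.7 ± 1.41 in DN2b (SD, n = 2 each), against 66.3 ± 8.04 in LSK and 41.0 ± 3.61 in IgG (SD, n = 3 each). In equal lists the Delta1-cultured libraries stood at 87.6 to 92.3, LSK at 29.6 to 59.9 and IgG at 28.8 to 40.9, so that LSK and IgG then overlapped. Among the 13068 DHSs open in every library, 8.12% had all Delta1-cultured percentiles above all others. How many of these also had LSK above IgG was not counted. Unlike at the promoter, DN1 and DN2 did not separate here.

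**Figure D3:**
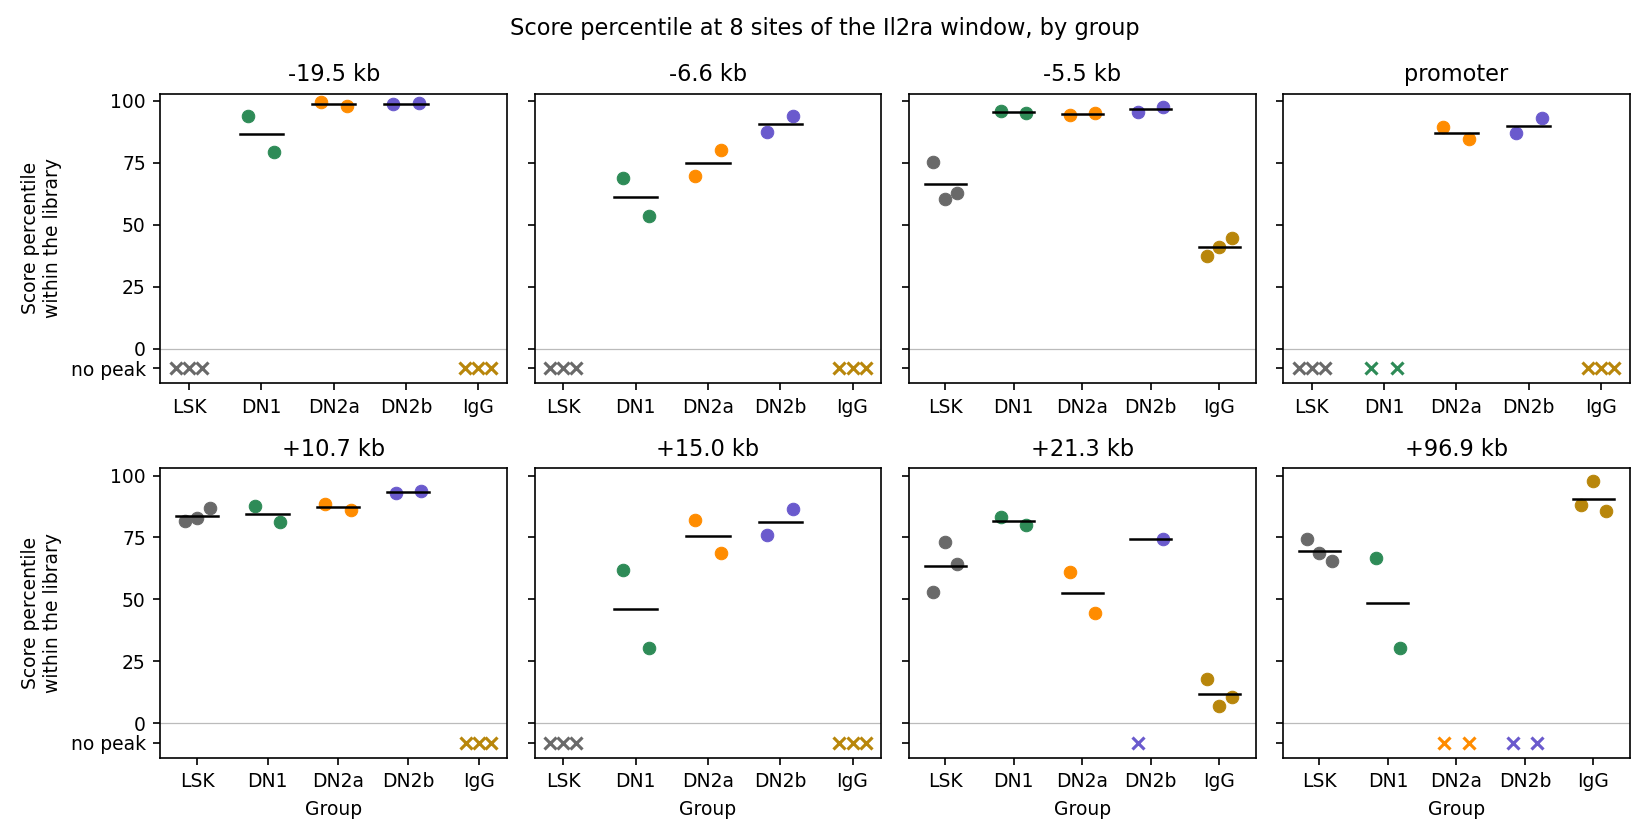
Score percentile within the library (vertical axis) by group (horizontal axis) at 8 sites named by their distance from the Il2ra start. Each dot is a library, each cross a library without a peak, and each line the mean of the libraries with a peak. At the promoter only DN2 libraries have dots, whereas at -19.5, -6.6 and +15.0 kb DN1 libraries have dots below those of DN2.

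Intron 1 spans 31.2 kb, 62.0% of the gene, and held 10 of the 12 sites of the gene body. The +10.7 kb site was called in all 9 LSK and Delta1-cultured libraries and in no IgG library, and so was the +62.9 kb site beside the Il15ra start. This pattern held at 3.17% of all DHSs. At +10.7 kb the LSK libraries stood at 81.7, 82.7 and 86.8 and DN1 at 87.6 and 81.3. The percentile was 88.5 and 86.0 in DN2a and 93.1 and 93.7 in DN2b. Intron 1 was therefore accessible at this point in freshly isolated progenitors, where the promoter had no peak. LSK, DN1 and DN2a overlapped, and both DN2b values lay above all of them. Among DHSs with this pattern, the share with DN2b above the rest was not counted. In equal lists DN2b was again highest, at 87.1 and 78.5, while DN1 (63.6 and 60.6) and DN2a (76.2 and 75.4) no longer overlapped LSK, whose values lay between them.

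The +21.3 kb site was called in 11 libraries, all but DN2b replicate 1. The LSK libraries stood at 52.9, 73.2 and 64.3 and DN1 at 83.1 and 80.0. The percentile was 60.9 and 44.5 in DN2a, 74.3 in DN2b replicate 2, and 17.9, 6.88 and 10.7 in IgG. DN1 lay above every other group here and IgG below, the reverse of the order of DN1 and DN2 at the sites open only in Delta1-cultured cells. In equal lists neither holds. DN1 replicate 1, at 50.4, fell within the LSK range, which reached 55.7, and DN2a replicate 2, at 2.76, fell below the IgG libraries that kept the peak, at 6.54 and 6.88. The share of DHSs with the as-deposited order was not counted.

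The other sites of the gene body were called in fewer libraries. The +12.7 kb site had peaks in 2 LSK libraries (50.8 and 48.7), both DN1 (65.5 and 38.3) and DN2b replicate 2 (81.5). The +20.2 kb site was called in both DN2a libraries (39.3 and 37.6) and in DN2b replicate 2 (79.6), and in equal lists only the last was left. The +29.5 kb site was called in LSK replicate 2, both DN1 libraries and DN2b replicate 2, at percentiles of 33.0 to 50.6, and in equal lists only LSK replicate 2 was left. The +44.9 kb site, in intron 7, was called in LSK replicate 1 and both DN1 libraries at 11.9 to 41.7, and in no library of equal length. None of these 4 sites was open in every library of each Delta1-cultured group.

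Some upstream and downstream sites were called mainly in DN2 cells. The -23.0 kb and -22.3 kb sites, in intergenic DNA, each had peaks in DN2a replicate 1 and both DN2b libraries. At -23.0 kb the percentile was 62.3 in DN2a replicate 1 and 78.3 and 76.8 in DN2b, and at -22.3 kb it was 58.0, 69.9 and 81.0. The +57.3 kb site, between Il2ra and Il15ra, was called in the same 3 libraries at 60.9, 59.0 and 64.1. DN2a replicate 2 lacked all 3 in its full list of 57729 peaks, whereas DN2a replicate 1 kept all 3 when cut to 32952 peaks, at 21.6, 12.8 and 18.8. Both DN2b libraries kept the sites at -23.0 and -22.3 kb in equal lists, and DN2b replicate 2 lost that at +57.3 kb. The share of all DHSs called in DN2a replicate 1 and both DN2b libraries alone was not counted.

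Other sites were called outside the DN2 cells. The +96.9 kb site, 34.5 kb beyond the Il15ra start in intergenic DNA, had a peak in all 8 LSK, DN1 and IgG libraries and in no DN2 library, a pattern of 0.179% of all DHSs. Its percentile was 74.5, 68.8 and 65.6 in LSK, 66.6 and 30.5 in DN1 and 88.1, 97.8 and 85.7 in IgG. IgG lay above LSK and DN1, as at 21.6% of the 305 DHSs with that pattern. In equal lists it kept 7 libraries and lost DN1 replicate 2. The -45.9 kb site, in intron 3 of Rbm17, was called in the 3 IgG libraries (4.16, 29.3 and 32.2) and in LSK replicate 2 (6.12), all in the lower part of their lists.

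The window holds the starts of 4 protein-coding genes. Rbm17, which encodes a splicing factor, had a promoter site at -39.5 kb that was open in all 12 libraries at percentiles of 79.1 to 95.2, with 89.1 ± 1.14 in LSK and 82.2 ± 3.87 in IgG (SD, n = 3 each). Together with the -5.5 kb site it made 2 of 32 sites open in every library, against 7.68% of all DHSs. Gm17490 had no promoter peak in any library. The Il15ra promoter was open in 10 libraries. Its main site, +62.9 kb, stood at 58.6, 42.2 and 61.3 in the LSK libraries and at 72.5 and 80.0 in DN1. The DN2a libraries had 81.3 and 82.1 and DN2b had 80.3 and 92.4. All DN2 values lay above DN1, though only just at 80.3 against 80.0, and all DN1 values above LSK. DN2 lay above LSK at 25.1% of the 5402 DHSs called in every library but IgG. For the full order with DN1 between them no share was counted. In equal lists DN1, at 19.4 and 57.9, overlapped LSK, at 4.35 to 32.3, and DN2, at 61.2 to 74.2, stayed above both. The +62.5 kb site at the Il15ra start itself was called in 1 library of each group, at 21.2 for LSK, 29.5 for IgG, 45.4 for DN1, 64.9 for DN2a and 72.3 for DN2b. The +67.5 kb site, in intron 1 of Il15ra, was called in LSK replicate 3 (13.3), both DN1 libraries (35.7 and 33.0) and DN2b replicate 2 (58.1), and in no library of equal length.

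Of the 3 sites in 2 libraries, those at -37.7 and -7.6 kb were called in both DN2b libraries and no other, and that at +47.6 kb, in the 3′ untranslated region of Il2ra, in 2 IgG libraries. The shares of all DHSs with these patterns were not counted. The -7.6 kb site stood at 72.8 and 75.6 and kept both libraries in equal lists, whereas the -37.7 kb site, at 44.9 and 65.0, kept neither. Of the 9 sites in 1 library, 4 belonged to DN2b replicate 2, 2 each to DN1 replicate 1 and DN2a replicate 1, and 1 to DN2b replicate 1, at percentiles of 24.9 to 89.8. Sites of this kind made up 28.1% of the window's sites and 32.7% of all DHSs. All 4 of DN2b replicate 2 lay in intron 1 and none was left in equal lists, where 2 of the 9 remained. In all, 19 of the 32 sites, or 59.4%, were open in no LSK or IgG library, against 45.6% of all DHSs.

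Of the 32 sites, 20 held a match to at least 1 of 7 motifs of factors known in T cell or receptor signalling (62.5%, against 52.3% of all DHSs), and 6 of the 7 had a higher share here than over all DHSs, with no test. Each was searched on both strands in the central 150 bp of a site. TGTGGT, the core bound by RUNX factors, was in 10 of 32 sites (31.2%) and in 23.1% of all consensus DHSs. It occurred 2 times in the -19.5 kb and 2 times in the +15.0 kb site, 2 times at +12.7 kb, once each at -23.0, -5.5, +10.7 and +20.2 kb, and at no other site open in 3 or more libraries. TGGAAA, an NFAT core, was in 6 sites (18.8%, against 12.7%), among them -6.6 kb with 2 matches and +10.7 kb with 1. TTCNNNGAA, the STAT palindrome, was in 4 sites (12.5%, against 4.79%), of which -6.6 kb was the only one open in 3 or more libraries. CTTTGA, of TCF and LEF factors, was in 2 sites (6.25%, against 11.2%), 1 of them +15.0 kb. TGANTCA, of AP-1, was in 5 sites (15.6%, against 7.66%), AGATAA, of GATA factors, in 4 (12.5%, against 8.25%), and GTGGGAA, of the Notch partner RBPJ, in 2 (6.25%, against 3.43%), both called in 1 library. No matches overlapped in the sequences printed here. Neither the 250 promoter bases nor the promoter site held a match to any of the 7, and RUNX letters occurred in 14.0% of the 32851 RefSeq promoters of the same length. A match describes letters only and does not show that a factor was bound.

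The sites of the window were near all DHSs in GC content and lower in CpG. The median GC content of their central 150 bp was 47.6%, against 49.3% over all DHSs. CpGs were fewer, with a median of 1.0 per 150 bp against 2.0 over all DHSs. The central 150 bp held no CpG at 10 of 32 sites (31.2%), among them the promoter site and +15.0 kb, against 17.9% of all DHSs. The promoter site had a GC content of 37.3% over these bases and the Rbm17 promoter site, with 12 CpGs, one of 64.0%.

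The 5 protein-coding genes whose promoter percentiles over the 12 libraries were closest to those of Il2ra, by mean absolute difference with 0 for no peak, were Slc16a5 (2.61), Cd3e (3.35), Olfr525 (4.1), Cd3g (4.3) and Tnfsf11 (5.5). All but Olfr525 were open in exactly the 4 DN2 libraries. Slc16a5, a member of the monocarboxylate transporter family, stood at 75.4 and 76.8 in DN2a and 94.5 and 97.7 in DN2b. Cd3e, which encodes the epsilon chain of CD3, stood at 68.5 and 74.1 in DN2a and 92.7 and 98.8 in DN2b. Il2ra, within 1 kb of its start, stood at 89.4 and 84.7 in DN2a and 89.8 and 93.0 in DN2b. The stages of Il2ra stood apart on this measure only through the upstream peak of DN2b replicate 1, and in equal lists, at 78.1 and 73.2 in DN2a and 81.0 and 76.5 in DN2b, they overlapped. Olfr525, with stage means of 91.3 in DN2a and 95.6 in DN2b, also had low-ranking DN1 peaks, at 22.7 and 9.72. Tnfsf11 encodes the cytokine RANKL.

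Among 17 genes of the IL-2 and related receptors and their signalling, both DN2b libraries had a peak at all 17 promoters. Both DN2a libraries did at 14, both DN1 at 12, all 3 LSK at 9 and all 3 IgG at 4. In equal lists a library had 14 to 16 of the 17 open in DN2b, 12 to 14 in DN2a, 9 in DN1, 8 to 11 in LSK and 4 to 8 in IgG, so that DN1 then lay within the LSK range. Over all protein-coding genes the as-deposited shares open in every library of the group were 50.3% for DN2b, 46.7% for DN2a, 49.4% for DN1, 47.8% for LSK and 38.1% for IgG. Shares for single libraries in equal lists were not counted, so the equal-list counts have no such background. Of the receptor chains, Il2ra was the one gene of the list open in all DN2 libraries and no other. Il2rb, the beta chain, had peaks in the DN2b libraries alone, at 25.6 and 63.2, and in none of equal length. Il2rg, the common gamma chain, had peaks in all Delta1-cultured libraries, at 49.5 to 87.8, and in LSK replicate 2, at 60.5. Il21r and Stat5a were also called only in DN2b, at 69.9 and 78.5 and at 20.4 and 70.8. In equal lists Il21r kept both DN2b libraries and Stat5a kept 1. How many of all promoters were called in both DN2b libraries alone was not counted.

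Among the other members, Il9r and the cytokine gene Il2 itself were open in all Delta1-cultured libraries and no other, as were 0.336% of all promoters. In equal lists both lost this pattern, Il9r keeping 1 DN1 library and all DN2 libraries and Il2 keeping no DN1 and 3 DN2 libraries. As deposited, Il9r stood at 50.6 and 53.4 in DN1 and 81.5 to 95.8 in DN2, and Il2 at 20.5 and 19.6 in DN1 and 42.3 to 72.3 in DN2. In both genes DN2 lay above DN1. Il7r, the receptor of the IL-7 added to DN2 cultures, ranked higher in DN1 (90.8 and 92.9) than in any DN2 library (75.9 to 88.5) or LSK library (38.6 to 53.5). For the orders of DN1 and DN2 at Il9r, Il2 and Il7r, the shares of all promoters were not counted. Jak1, Cish, Socs1 and Bcl2 were open in all 12 libraries. No difference in these ranks was tested, since the list and the gene were chosen with results of these data known.

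**Figure D4:**
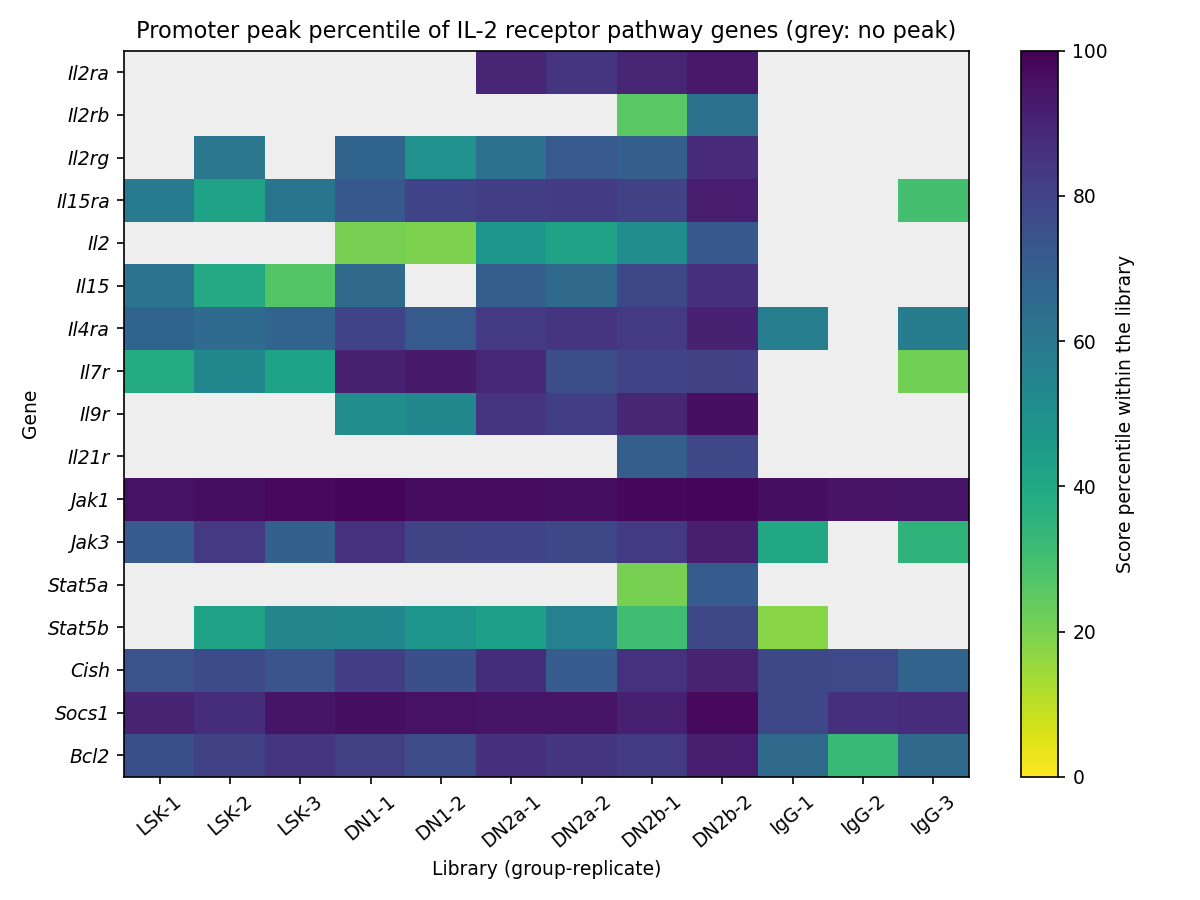
Highest score percentile of a peak within 1 kb of the start (colour, grey where no peak was called) for 17 genes of the IL-2 receptor pathway (rows) in 12 libraries (columns). Il2ra is filled only in the 4 DN2 columns, and Il2rb, Il21r and Stat5a only in the 2 DN2b columns.

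The labels were checked on promoter peaks of marker genes. Of 9 early T genes, a library had 0 open in IgG, 1 to 2 in LSK, 4 in DN1, 6 in DN2a and 7 to 8 in DN2b, with Ptcra open in none. In equal lists it had 0 in IgG, 0 to 1 in LSK, 1 to 3 in DN1, 5 to 6 in DN2a and 6 to 7 in DN2b. The shares of all promoters given for the receptor genes are for every library of a group in lists as deposited. They are a different measure from these counts per library, for which no share was counted. Of 7 progenitor genes each group had 2 to 4 open throughout, and Ly6a, which encodes the SCA1 used to sort LSK cells, had no promoter peak in any library. Of 6 myeloid genes, IgG libraries had 3 or 4 open and the other libraries 1 or 2. Only Itgam was open in all 3 IgG libraries, and it was open in 11 libraries in all. Of genes of other lineages, Ebf1 (B cells) was open in 10 libraries, Cpa3 (mast cells) in all 9 LSK and Delta1-cultured libraries, and Klrb1c and Eomes (NK and innate lymphoid cells) in 8 and 3. Cd79a and Pax5 (B cells), Fcer1a and Ms4a2 (mast cells) and Ncr1 (NK cells) had no peak in any library.

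Windows of the same design around Cd3e and Rag1, 2 other genes of the early T list, held 25 and 21 sites in 110.9 and 111.2 kb, against 32 in 150.4 kb at Il2ra. Cd3e had 1 site open in all Delta1-cultured libraries alone and 5 open in all DN2 libraries alone, Rag1 had 1 of each, and Il2ra had 3 and 1. Neither had a site called in all but the DN2 libraries, of which Il2ra had 1. Peak numbers were 16 to 17 in DN2a and 17 to 22 in DN2b at Cd3e, against 5 to 13 in the other libraries, so that DN2 separated there and not at Il2ra. At Rag1 they were 9 to 13 in DN2 and 2 to 10 in the others. In equal lists DN2 separated at both Cd3e (10 to 19 against 3 to 6) and Rag1 (5 against 2 to 3), and at Cd3e all Delta1-cultured libraries, at 6 or more, lay above the rest. Of all gene windows, 2.12% separated DN2 and 1.72% Delta1-cultured libraries in equal lists. The share of sites open in no LSK or IgG library was 56.0% at Cd3e and 66.7% at Rag1. The differences between these loci were not tested.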

How the data were processed

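DNase-seq libraries were made from nuclei of 12 cell populations in 5 groups, given by the labels (LSK, IgG 3 each; DN1, DN2a, DN2b 2 each). Per the labels and the study's methods, the authors aligned reads (BWA 0.7.12, SAMtools 1.2 in the submitters' processing notes, mm10) and ran the hotspot2 peak caller (false discovery rate 0.05). The deposited files list the peaks of each library separately, each 150 bp wide, with a score by the authors that reaches 150 in every list and has no stated scale. Scores were therefore read only as ranks. No peak lay past the end of its chromosome in the GRCm38 sequence. Peaks on the autosomes and X (32952 to 111582 a library) were converted to percentiles and merged into consensus DHSs with Python 3.11.15, pandas 2.3.3 and numpy 2.4.6. A promoter was open where a peak's midpoint lay within 1 kb of a GENCODE M21 start. Sequences came from RefSeq and its GRCm38.p6 genome. Every site open in 3 or more libraries is named. Sequences were chosen among sites open in all DN2 and no LSK or IgG library, with a pair added later. Peak number was compared by exact permutation tests over libraries, adjusted over 3 tests at a threshold of 0.05. The tests were tried on simulated data, and no outcome of that trial is given or relied on here. Alternatives varied list length, window, merging, promoter width and libraries. The gene, sites, lists and tests were chosen with earlier results of these data known. Read depth is unknown, so no interval on a call is given, and the precision rests on 2 or 3 libraries a group.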

Additional observations from a re-analysis of the deposited data

How the results depend on the processing

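The larger peak number of Delta1-cultured libraries kept its direction and an adjusted p below 0.05 under all 24 alternatives (highest 0.0227). By the exact permutation tests, the share of variance between groups missed the threshold with flanks of 100 kb (0.671, adjusted p = 0.0583), without Il2ra promoter peaks (0.721, 0.0652) and as peaks per 10000 (0.671, 0.0757). The DN2 difference missed it with flanks of 100 kb (9.12 peaks, 0.0583) and without Il2ra promoter peaks (5.5 peaks, 0.0727). The causes were not tested. Leaving out each library in turn gave 0.757 to 0.916 for the share of variance, 6.63 to 9.23 peaks for Delta1-cultured cells and 4.33 to 8.67 peaks for DN2 cells. It gave 1 to 4 sites open in all DN2 libraries alone, with 4 without DN2a replicate 2 and 2 without DN2b replicate 1. Lists of equal length gave 2 such sites and 4 sites in 1 library, and the upper 50% of each list left 1 site open in every library. Flanks of 20 kb at equal list lengths, an alternative chosen after seeing the data, gave adjusted p-values of 0.00128 to 0.00216, and equal lists without promoter peaks of other genes, chosen likewise, gave 0.00908 for each test. Leaving out or keeping all peaks tied at the cut, also chosen later, gave 0.00606 to 0.0173. Of the 20 named sites, 9 kept every library in equal lists and 2 kept none. No paired analysis was possible because the labels do not say which libraries share an LSK isolate, and the replicate numbers used here only name libraries in the order of deposition. Depth is unknown, so a site without a peak may be open below the calling threshold.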
